A study of Mus musculus with 2 samples.

Results

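Bone matrix genes encode the proteins, the enzyme and the transcription factor that build and mineralize the extracellular matrix of bone, and the 8 described here are Ibsp, Spp1, Sparc, Mgp, Alpl, Runx2, Postn and Ptn. They were taken by symbol from the 34259 rows of the deposited table that hold whole-number counts, and each of the 8 had 1 such row. The choice was made with earlier results of these libraries known, and from the same treated-over-control difference, so every value below is a description and none is a test. RNA was extracted from 4T1 tumours, which grow from a mouse mammary carcinoma line that metastasizes to bone and other organs, and was sequenced in bulk. The treated group was 1 tumour of a mouse that received a degrader of an autophagy-related protein, with injections given 3 times per the series design, and it was batch 1. The control group was 1 tumour labelled as control, and it was batch 2. Batch and treatment therefore cannot be told apart. The degrader's target, what the control mouse received, and the strain, sex and age of the mice are not stated in the labels.

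In bone, osteoblasts lay down a collagen matrix and add small acidic glycoproteins that bind calcium and cell surface integrins, while alkaline phosphatase frees phosphate for mineral and inhibitors such as matrix Gla protein keep mineral out of soft tissue. The transcription factor RUNX2 switches on many of these genes. Carcinoma cells, fibroblasts and macrophages of breast tumours can also express several of them, and osteopontin, periostin and SPARC are among the abundant matrix-associated proteins of such tumours.

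The largest difference among the 8 was in Ibsp, followed by Ptn and Mgp, and these 3 genes were more than 2-fold lower in the treated than in the control tumour. Spp1, Sparc, Runx2 and Postn were also lower, by less than 2-fold, and Alpl was hardly detected in either library. Counts were scaled to counts per 1000000 (CPM) with the trimmed mean of M values (TMM), and genes were counted as lower or higher at 2-fold on the log2 scale after 1 CPM was added to both values, for genes whose mean reached 10 CPM. By this rule 3 of the 7 members that reached the minimum were lower, 0 were higher and 4 lay within 2-fold. Across all 8865 genes that reached it, 2.5% were lower and 4.23% were higher. Because the members were picked on this same difference, their share is not read against that background. Ibsp and Ptn reached the minimum only through the control library, where they were high.

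Promoter sequences are shown for 4 of the genes: Ibsp and Ptn for their large differences, Spp1 as the neighbour and relative of Ibsp on chromosome 5, and Runx2 as the transcription factor among the members. Each is the RefSeq window of GRCm38.p6 (mm10) from 250 bases before to 50 bases after the annotated start, written in the gene's own direction. For these 4 genes the RefSeq start is not the same position as the GENCODE gene start given below. Motif distances are counted from the RefSeq start. Capitals mark the RUNX core motif TGTGGT, the TATA motif TATAAA and the motif CCAAT, each searched on both strands so that a match on the opposite strand appears as the reverse complement. The windows lie at chr5:104299037-104299336 on the plus strand, chr5:104434861-104435160 on the plus strand, chr6:36810130-36810429 on the minus strand and chr17:44814578-44814877 on the minus strand.
Ibsp: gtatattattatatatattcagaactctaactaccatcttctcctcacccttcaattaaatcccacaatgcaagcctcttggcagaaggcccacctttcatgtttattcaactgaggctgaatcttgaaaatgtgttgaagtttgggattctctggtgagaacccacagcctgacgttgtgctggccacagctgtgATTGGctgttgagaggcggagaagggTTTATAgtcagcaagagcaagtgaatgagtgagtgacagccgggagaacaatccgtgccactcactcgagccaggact
Spp1: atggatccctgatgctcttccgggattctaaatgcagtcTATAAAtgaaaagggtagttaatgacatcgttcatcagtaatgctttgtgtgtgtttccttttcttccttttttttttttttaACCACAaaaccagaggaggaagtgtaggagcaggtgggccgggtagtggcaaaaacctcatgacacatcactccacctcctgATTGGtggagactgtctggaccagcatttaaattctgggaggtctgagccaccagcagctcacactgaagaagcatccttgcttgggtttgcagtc
Ptn: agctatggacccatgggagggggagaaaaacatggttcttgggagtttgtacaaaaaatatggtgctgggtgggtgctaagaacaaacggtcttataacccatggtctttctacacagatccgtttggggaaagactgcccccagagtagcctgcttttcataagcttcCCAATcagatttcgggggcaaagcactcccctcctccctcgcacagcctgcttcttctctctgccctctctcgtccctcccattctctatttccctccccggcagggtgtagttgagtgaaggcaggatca
Runx2: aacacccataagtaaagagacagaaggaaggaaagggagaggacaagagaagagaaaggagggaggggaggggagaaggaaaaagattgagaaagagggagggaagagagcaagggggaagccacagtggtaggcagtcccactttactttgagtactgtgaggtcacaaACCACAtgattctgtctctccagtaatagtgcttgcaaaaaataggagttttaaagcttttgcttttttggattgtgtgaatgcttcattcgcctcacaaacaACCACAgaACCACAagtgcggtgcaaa

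The Ibsp window holds an inverted TATA motif that begins 28 bases before the start and an inverted CCAAT motif that begins 54 bases before it, and no RUNX core motif. The Spp1 window shown, the first of 2 in the set, holds an inverted RUNX motif 128 bases before the start and an inverted CCAAT motif 46 bases before it, with a TATA motif 211 bases before it, while the second Spp1 window, at a downstream start, holds none of the 3 motifs. The Runx2 window holds 3 inverted RUNX motifs, 80 bases before and 23 and 31 bases after the start, whereas the Ptn window holds only a CCAAT motif, 81 bases before the start. Among all 32851 windows in the same RefSeq set, 16.8% hold a RUNX motif, 13.6% a TATA motif and 37.4% a CCAAT motif. A match describes the letters of the window and is not evidence of binding. Windows were found for 7 of the 8 members, and none was matched for Mgp.

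Ibsp (ENSMUSG00000029306, chromosome 5, 104299171 to 104311469, plus strand) encodes bone sialoprotein, an acidic glycoprotein that nucleates mineral and binds integrins through an RGD motif. The treated library held 21 counts and the control library 263, or 5.43 CPM (exact Poisson 95% interval 3.36 to 8.31) and 118 CPM (104 to 133). The treated value was thus 21.7-fold lower, with an exact conditional binomial 95% interval of 13.9 to 35.7. This interval, like all others here, covers counting error only and not the variation between tumours. Ibsp had the 3rd lowest log2 ratio of the 8865 genes, at -4.21. In the second sheet that was deposited for each sample the 2 counts were the same.

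Spp1 (ENSMUSG00000029304, chromosome 5, 104435118 to 104441050, plus strand) encodes osteopontin, a relative of bone sialoprotein that is also a secreted cytokine of macrophages and carcinoma cells. It had 10853 treated and 11935 control counts, which is 0.284% and 0.530% of all counts of these libraries. Its level was 2808 CPM (2755 to 2861) against 5356 CPM (5260 to 5453), a difference of 1.91-fold (1.86 to 1.96). The log2 ratio of -0.93 lay just short of the 2-fold rule, and 3.11% of the genes tested had a ratio as low or lower. The summed level of 8 macrophage markers was 1276 CPM in the treated library and 1295 CPM in the control, a ratio of 0.985 (0.941 to 1.03). The markers went both ways: Lyz2, the lysozyme of myeloid cells, had a ratio of 0.632 (0.588 to 0.680), whereas Mrc1 and Cd68 had ratios of 2.99 (2.52 to 3.57) and 2.57 (1.605 to 4.28). The part of macrophages in the Spp1 value was not tested.

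**Figure D1:**
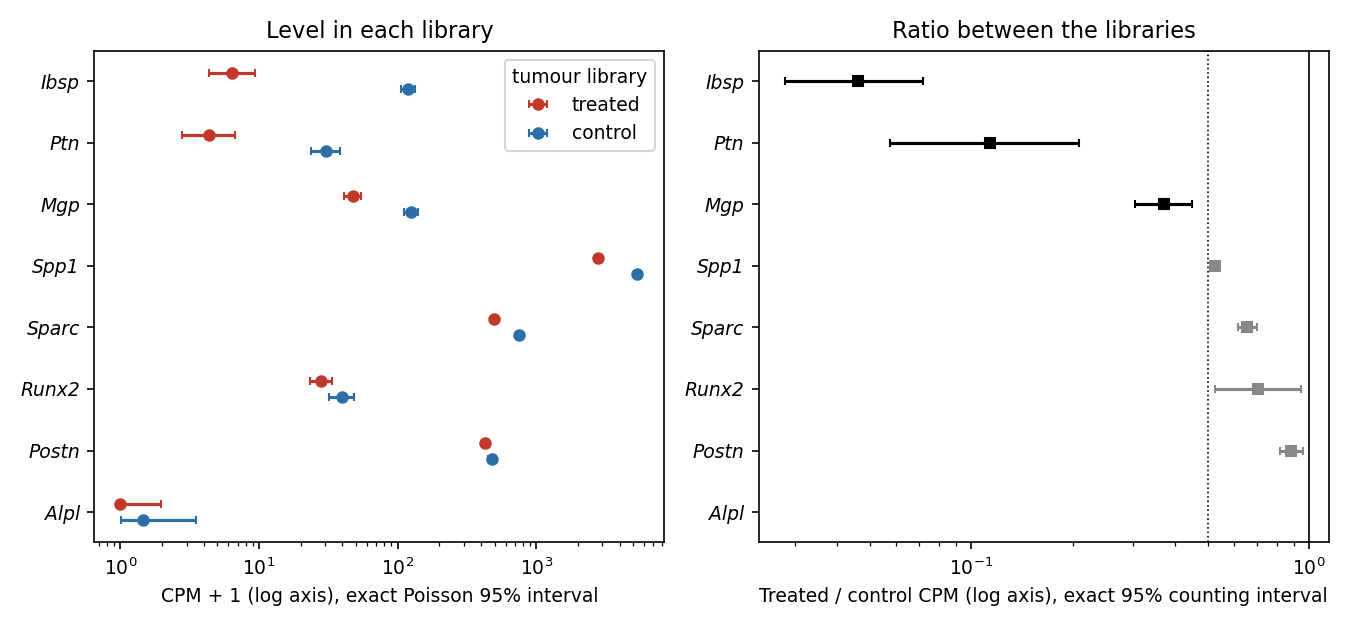
Left, level of each bone matrix gene in the treated (red) and control (blue) tumour library as CPM + 1 on a log axis, with exact Poisson 95% intervals. Right, ratio of treated to control CPM on a log axis with exact 95% counting intervals, in black for the 3 genes past the 2-fold rule, with the dotted line at a ratio of 0.5 and the solid line at 1. Ibsp, at 5.43 against 118 CPM, lies farthest to the left, Postn lies nearest to 1, and Alpl has no ratio because it had 0 and 1 counts.

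Ibsp and Spp1 belong to the SIBLING family, whose 5 genes lie side by side on mouse chromosome 5. Dmp1, a regulator of mineralization in osteocytes and dentin, was the only other member of this family that was detected, with 85 treated and 56 control counts, and its ratio was 0.875 (0.617 to 1.25). Dspp and Mepe, of dentin and osteocytes, had 0 counts in both libraries. A comparison that needs no scaling between libraries is the number of Ibsp counts per 100 Spp1 counts, which was 0.193 in the treated library and 2.20 in the control, or 11.4-fold lower (7.29 to 18.7). Per 100 Dmp1 counts, Ibsp had 24.7 counts in the treated library and 469.6 counts in the control, 19.0-fold lower (10.6 to 34.8). Ibsp was chosen on this difference, so these ratios describe it only.

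Within 300 kb of the Ibsp start the annotation places 11 protein-coding genes, of which 7 reached the minimum. Of these, 3 were at least 2-fold lower in the treated tumour, Ibsp itself among them, and 0 were higher, beside 2.5% lower and 4.23% higher over all genes tested. The window was centred on Ibsp, and both Ibsp and Spp1 were picked on this same difference. The share of lower genes is therefore not read against that background. The lower genes besides Ibsp were Sparcl1 and Hsd17b11. Sparcl1, a matrix protein of the SPARC family, had 134 against 202 counts and a 2.61-fold difference (2.09 to 3.28). Hsd17b11, a lipid droplet enzyme, had 159 against 216 counts and a ratio of 0.424 (0.344 to 0.523). Nudt9, which lies between those 2 genes, had 349 against 216 counts and a ratio of 0.932 (0.784 to 1.11). Dmp1, between Sparcl1 and Ibsp, lay within 2-fold as well, so the lower genes did not form an unbroken stretch. Spp1 starts 135.9 kb downstream of Ibsp, and its neighbour Pkd2, the gene of polycystin-2, had a ratio of 0.754 (0.626 to 0.909).

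**Figure D2:**
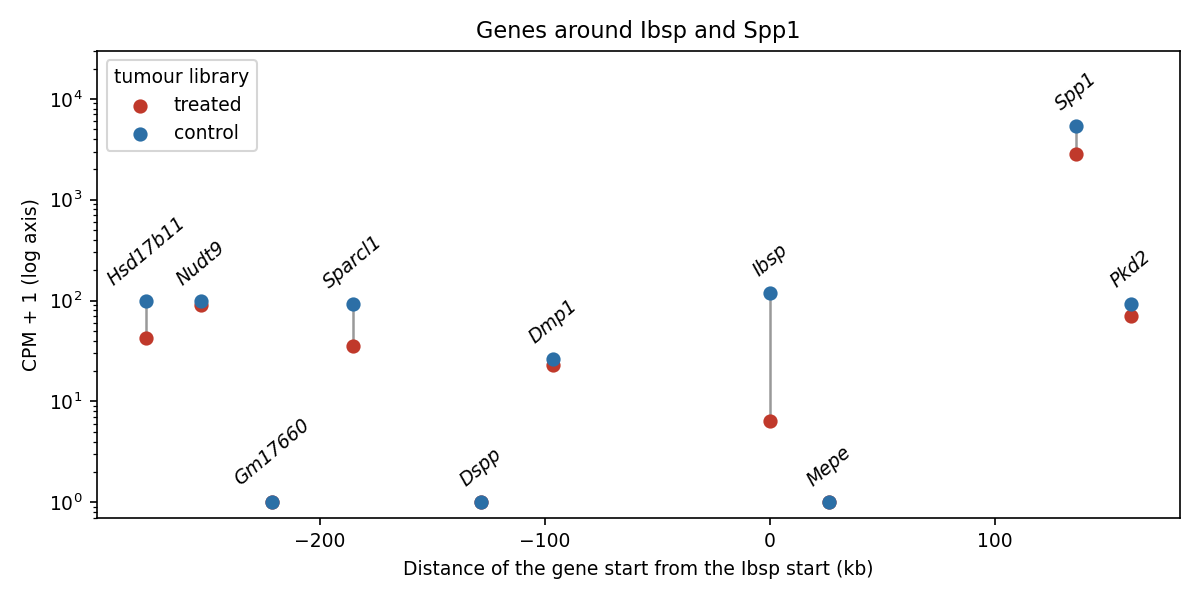
Level of each protein-coding gene with a row in the table, as CPM + 1 on a log axis, against the distance of its start from the Ibsp start in kb, for the treated (red) and control (blue) tumour library. Grey lines join the 2 libraries, and the longest joins Ibsp at 5.43 and 118 CPM, whereas Dmp1 and Nudt9 on its left differ little and Dspp and Mepe have 0 counts.

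Mgp (ENSMUSG00000030218, chromosome 6, 136872435 to 136875823, minus strand) encodes matrix Gla protein, an inhibitor of soft tissue calcification made by vascular smooth muscle, chondrocytes and fibroblasts. It had 179 treated and 278 control counts. The level of 46.3 CPM (39.8 to 53.6) was below the control level of 125 CPM (111 to 140), a 2.69-fold difference (2.22 to 3.27). Its log2 ratio was -1.41, the 80th lowest of the genes tested. Per 100 Sparc counts, Mgp had 9.40 counts in the treated library and 16.6 counts in the control, 1.77-fold lower (1.44 to 2.17). Per 100 Spp1 counts, Mgp had 1.65 and 2.33 counts, 1.41-fold lower (1.16 to 1.72).

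Matrix Gla protein works only after vitamin K-dependent carboxylation. Of 9 genes listed for this modification and for the proteins that carry it, 5 reached the minimum, and Mgp was the only one past 2-fold. Vkorc1, the reductase that recycles vitamin K, had 119 against 56 counts and a ratio of 1.23 (0.885 to 1.71). The osteocalcin genes Bglap and Bglap2, which encode the Gla protein of osteoblasts, had 0 counts in both libraries. Without Mgp the median log2 ratio of the list was 0.30, beside 0.03 over all genes tested.

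Ptn (ENSMUSG00000029838, chromosome 6, 36714929 to 36810220, minus strand) encodes pleiotrophin, a heparin-binding growth factor stored in bone and other matrices. It had 13 treated and 66 control counts, or 3.36 CPM (1.79 to 5.75) against 29.6 CPM (22.9 to 37.7). The difference was 8.80-fold, and with so few counts its interval ran from 4.81 to 17.4. Ptn had the 8th lowest log2 ratio, at -2.81. Its only close relative is the growth factor gene Mdk (midkine), which had 12 against 7 counts and did not reach the minimum. Per 100 Mdk counts, Ptn had 108 counts in the treated library and 943 in the control, 8.70-fold lower (2.52 to 30.8). Per 100 Ibsp counts, Ptn was higher in the treated library, at 61.9 against 25.1 counts in the control.

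None of the measured receptors and partners of pleiotrophin passed 2-fold. Of 12 genes in the list of its family, receptors and surface partners, 7 reached the minimum, and Ptn was the only one past 2-fold. The receptor genes Ptprz1 and Alk had at most 2 counts in either library. Sdc1, a heparan sulphate proteoglycan of epithelial cells and plasma cells, had 1179 against 605 counts and a ratio of 1.12 (1.02 to 1.24). Ncl (nucleolin), a nucleolar protein that also binds pleiotrophin at the cell surface, had 4045 against 1480 counts and a ratio of 1.58 (1.48 to 1.67). Without Ptn the median log2 ratio of the list was -0.11.

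**Figure D3:**
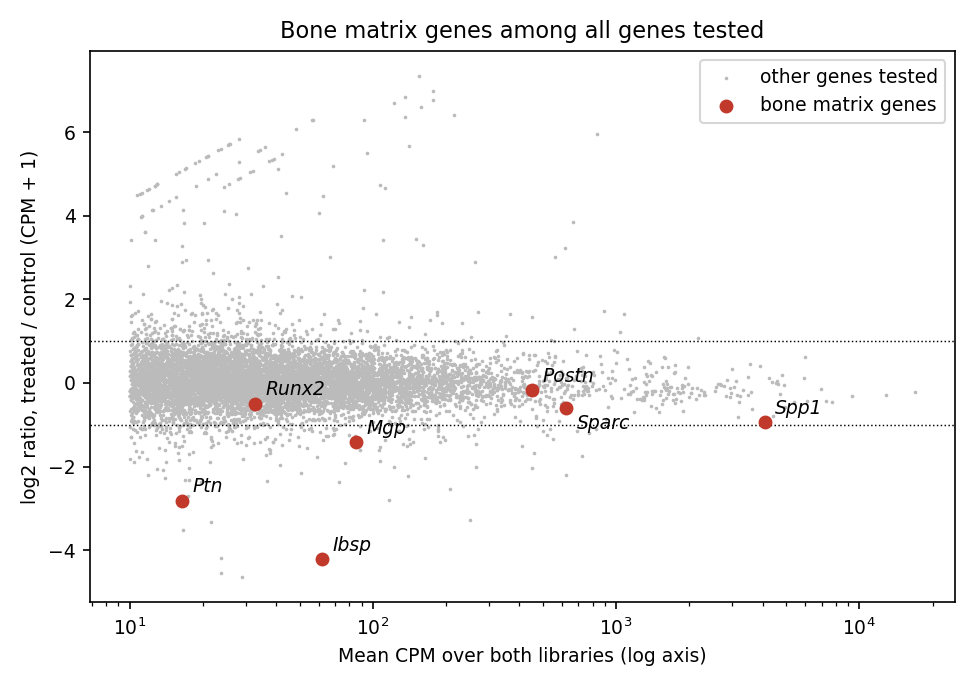
log2 ratio of treated to control (CPM + 1) against mean CPM on a log axis for the 8865 genes tested (grey) and the 7 bone matrix genes among them (red), with dotted lines at 2-fold. Ibsp at -4.21, Ptn at -2.81 and Mgp at -1.41 lie below the lower line, and the other 4 lie between it and 0.

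Sparc (ENSMUSG00000018593, chromosome 11, 55394500 to 55423183, minus strand) encodes osteonectin, which binds collagen and calcium. It had 1905 treated and 1675 control counts, which gave 493 CPM (471 to 516) against 752 CPM (716 to 788). Sparc was 1.52-fold lower (1.43 to 1.63) in the treated library, within the 2-fold rule. Relative to Col1a1, the gene of a chain of the type I collagen to which SPARC binds, the difference was smaller, at 146 against 179 Sparc counts per 100 Col1a1 counts, or 1.22-fold (1.10 to 1.36). Per 100 Sparcl1 counts, Sparc was higher in the treated library, at 1422 against 829 counts in the control. Of the 8 genes of the SPARC family, 3 reached the minimum and Sparcl1 was the only one of these past 2-fold. Over all genes tested, 2.5% were lower and 4.23% were higher. Smoc2, under the minimum at a mean of 8.52 CPM, went the other way with 52 against 8 counts and a ratio of 3.75 (1.77 to 9.14). Fstl1, a secreted relative with a follistatin-like domain, had 254 against 212 counts and a ratio of 0.691 (0.573 to 0.833).

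Postn (ENSMUSG00000027750, chromosome 3, 54361109 to 54391037, plus strand) encodes periostin, a fasciclin-domain protein of periosteum and tumour stroma that links collagen, fibronectin and tenascin-C. Its 1636 treated and 1066 control counts gave 423 CPM (403 to 444) and 478 CPM (450.1 to 508). The libraries differed by 1.13-fold (1.05 to 1.22), the smallest difference of the 7 genes. Tgfbi, the other secreted fasciclin-domain gene, went the other way with 444 against 187 counts and a ratio of 1.37 (1.15 to 1.63). Postn counts per 100 Tgfbi counts were therefore 368 in the treated library and 570.1 in the control, 1.55-fold lower (1.28 to 1.88).

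Partners of periostin in the matrix were lower or within 2-fold. Of the 9 genes in the list, Postn itself among them, 8 reached the minimum, 2 were at least 2-fold lower and 0 were higher. Over all genes tested, 2.5% were lower and 4.23% were higher. Fn1 (fibronectin) had 5160 against 3974 counts and a ratio of 0.749 (0.718 to 0.780), and Tnc (tenascin-C) had 1575 against 1697 counts and a ratio of 0.535 (0.499 to 0.573). Lox, the lysyl oxidase that crosslinks collagen, was 2.43-fold lower (1.95 to 3.02), and Ccdc80, a matrix protein of adipose tissue and fibroblasts, 2.65-fold lower (1.87 to 3.76).

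Runx2 (ENSMUSG00000039153, chromosome 17, 44495987 to 44814797, minus strand), the master transcription factor of osteoblasts, had 105 treated and 86 control counts. Its level was 27.2 CPM (22.2 to 32.9) against 38.6 CPM (30.9 to 47.7), a 1.42-fold difference (1.06 to 1.91). The count of Runx2 is uncertain, because Supt3 and antisense transcripts lie on the opposite strand within its limits and how strand was handled is unknown here. Supt3, a gene of the SAGA complex, had 85 against 34 counts and a ratio of 1.44. Cbfb, the partner subunit with which RUNX proteins bind DNA, had 451 against 358 counts and a ratio of 0.726 (0.631 to 0.837). Runx2 counts per 100 Cbfb counts were 23.3 and 24.0, a difference of 1.03-fold with an interval of 0.741 to 1.43.

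Levels of the osteoblast transcription factors ranged widely. Of 12 in the list, Runx2 among them, 6 reached the minimum, and 1, Twist1, was lower. The share over all genes tested was 2.5% lower and 4.23% higher. Twist1, a mesenchymal factor that restrains RUNX2, differed by 2.38-fold (1.37 to 4.22), with 24 treated and 33 control counts, at a mean of 10.5 CPM that is close to the minimum. Atf4, which acts in osteoblasts and in the stress response, had 736 against 580 counts and a ratio of 0.732 (0.655 to 0.817). Sp7 (osterix), Dlx5 and Msx2, which also act in osteoblasts, had 0 counts in both libraries. The 6 measured factors had a median log2 ratio of -0.56, all of them below 0, and without Runx2 the median was -0.63. Runx3, under the minimum, went the other way with 37 against 7 counts and a ratio of 3.05 (1.34 to 8.10).

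Alpl (ENSMUSG00000028766, chromosome 4, 137741733 to 137796384, minus strand) encodes tissue-nonspecific alkaline phosphatase, which removes the mineral inhibitor pyrophosphate. The treated library held 0 counts of it and the control library 1. A count of 0 allows up to 3 counts as a one-sided limit, or 0.776 CPM in the treated library, and the two-sided interval drawn in the plot of levels reaches 0.954 CPM, so no difference was detectable at this depth and the name of the group does not hold for this gene. Genes that act beside it were expressed. Of 12 genes listed for mineralization, 5 reached the minimum, and all of these lay within 2-fold with log2 ratios from -0.82 to -0.35. Smpd3, under the minimum, went the other way with 15 treated and 0 control counts. Nt5e (CD73), which forms adenosine and phosphate outside the cell, had 1074 against 1095 counts and a ratio of 0.566 (0.519 to 0.616). Ank, which exports pyrophosphate and its precursor, had 650 against 477 counts and a ratio of 0.786 (0.697 to 0.886).

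The integrins and CD44 that bind osteopontin and bone sialoprotein were measured in 6 of 10 genes, and by the rule all 6 lay within 2-fold. Cd44, a hyaluronan and osteopontin receptor, had 2732 against 1814 counts and a ratio of 0.868 (0.818 to 0.922). Itgb1, the common beta chain of many matrix receptors, had 2247 against 1678 counts and a ratio of 0.772 (0.724 to 0.823). Itgb3, the beta chain of the osteopontin receptor of osteoclasts, differed by 2.09-fold (1.34 to 3.28) in CPM, with 39 treated and 47 control counts, but with the pseudocount its log2 ratio of -0.99 was just short of the rule.

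Collagens and proteoglycans of the bone matrix were on both sides. Of 16 genes, 11 reached the minimum, 2 were lower and 1 was higher, with a median log2 ratio of -0.32. Over all genes tested, 2.5% were lower and 4.23% were higher. Col3a1 and Col1a2, chains of fibrillar collagens, had ratios of 0.832 (0.781 to 0.885) and 0.703 (0.653 to 0.758). Col5a2, a chain that sets the width of collagen fibrils, differed by 2.42-fold (2.17 to 2.70), with 554 treated and 773 control counts. Col12a1, a collagen on the surface of fibrils, differed by 2.05-fold (1.84 to 2.29), with 593 treated and 702 control counts. Dcn (decorin), a proteoglycan that binds collagen, had 486 against 116 counts and a ratio of 2.42 (1.97 to 2.98) in the opposite direction.

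Bone morphogenetic protein signalling is a strong inducer of osteoblast genes. Of 19 genes listed for it, 10 reached the minimum, and 1, Smad7, was lower, beside 2.5% lower and 4.23% higher over all genes tested. Smad7, a feedback inhibitor of the pathway and of TGF-beta, differed by 2.39-fold (1.97 to 2.91), with 182 treated and 251 control counts. Id3, a direct target, had 909 against 879 counts and a ratio of 0.596 (0.543 to 0.655), whereas Id1, another target, had 380 against 154 counts and a ratio of 1.42 (1.18 to 1.73). The receptor gene Bmpr2 had 418 against 373 counts and a ratio of 0.646 (0.561 to 0.745). Genes under the minimum went both ways. The ligand gene Bmp7 had 28 against 6 counts and a ratio of 2.69 (1.09 to 7.95). The ligand gene Bmp2 had 14 counts in each library, a ratio of 0.577 (0.255 to 1.30). The receptor gene Bmpr1b had 4 against 11 counts and a ratio of 0.210 (0.0487 to 0.708).

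Osteoclasts resorb bone matrix and share several genes with tumour macrophages. Of 14 genes listed for them and for the RANKL axis, 5 reached the minimum, and 1, Mmp9, was lower. The share over all genes tested was 2.5% lower and 4.23% higher. Mmp9, a gelatinase of osteoclasts and neutrophils, differed by 4.62-fold (4.27 to 5.01), with 859 treated and 2290 control counts. Acp5, the tartrate-resistant acid phosphatase of osteoclasts and some macrophages, had 253 against 224 counts and a ratio of 0.651 (0.542 to 0.783). Calcr and Oscar, receptors of osteoclasts, had 0 counts in both libraries. The list's median log2 ratio was -0.61, but it was 0.20 over the 12 genes that reach a mean of 1 CPM.

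**Figure D4:**
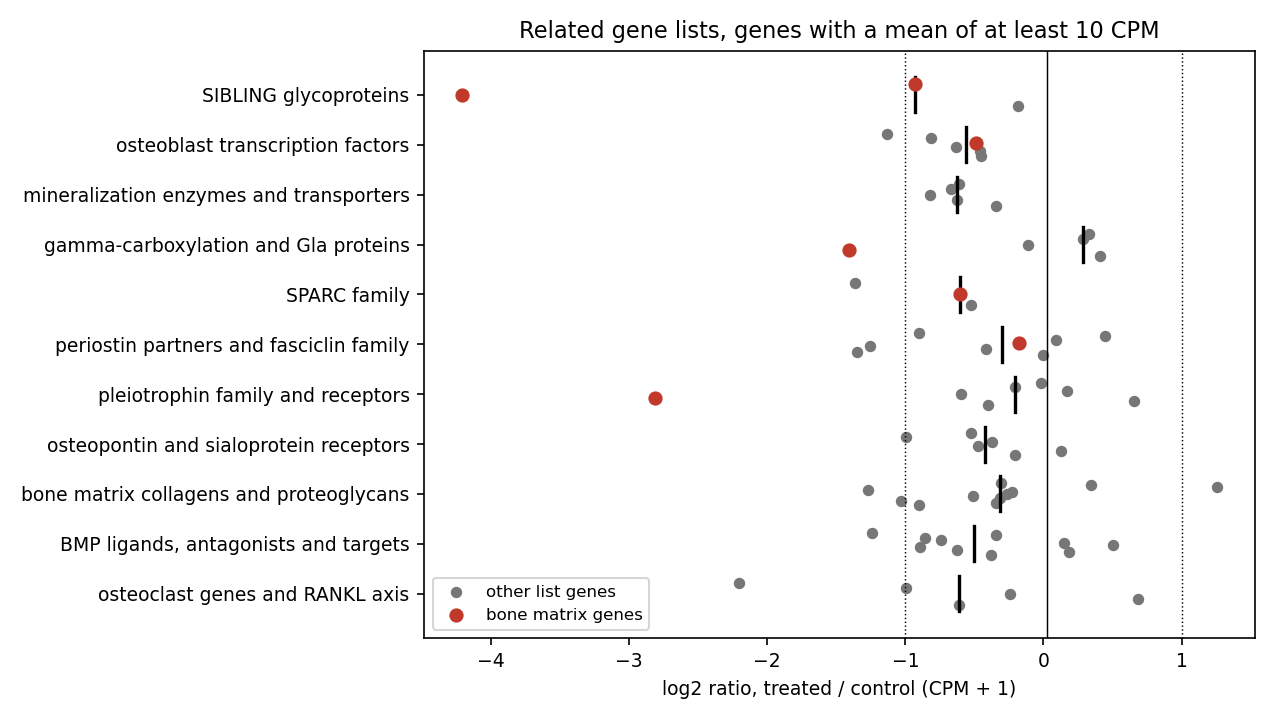
log2 ratio of treated to control (CPM + 1) of each gene that reached a mean of 10 CPM in 11 lists of related genes, with bone matrix genes in red, other list genes in grey and the median of each list as a black bar. Dotted lines mark 2-fold and the thin solid line the median of all genes tested, 0.03; Ibsp and Ptn stand well to the left of the other genes of their lists.

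Taking the 11 lists together without the 8 bone matrix genes, 117 genes remained, of which 61 reached the minimum. Of these 61, 8 were at least 2-fold lower, or 13.1%, 1 was at least 2-fold higher and 52 lay within 2-fold, beside 2.5% lower and 4.23% higher over all genes tested. Their median log2 ratio was -0.40, beside 0.03 over all genes tested, and 47 of 61 were below 0, beside 47.5% of all genes tested. The lists were drawn up with earlier results of these libraries in view, so these shares describe them and support nothing further.

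Markers of the cell types that could carry these transcripts differed between the libraries, and in bulk RNA fewer cells of a type and less RNA per cell cannot be told apart. Of 9 osteoblast and osteocyte markers, 4 (Bglap, Bglap2, Sp7 and Sost) had 0 counts in both libraries and Dmp1 alone reached the minimum, with summed levels of 29.0 CPM treated and 38.1 CPM control. The 8 chondrocyte markers, of which Acan, Col2a1 and Cnmd had 0 counts, summed to 54.1 and 57.9 CPM, most of it Sox9, which epithelial cells also express. The 7 osteoclast markers summed to 113 and 152 CPM, most of it Acp5 and Ctsk. These 2 had ratios of 0.651 (0.542 to 0.783) and 0.841 (0.646 to 1.10). The other osteoclast markers were under the minimum. Ocstamp had 20 against 3 counts, a ratio of 3.84 (1.14 to 20.2), and Atp6v0d2 18 against 9, a ratio of 1.15 (0.492 to 2.91). Dcstamp had 1 against 5 counts, and Calcr and Oscar had 0. The 9 fibroblast markers summed to 1616 CPM treated and 1899 CPM control, a ratio of 0.851 (0.818 to 0.885). Most of this sum comes from Col1a1, Col1a2 and Col3a1, each with a ratio below 1. The other markers went both ways: Dcn, Pdgfra and Lum had ratios of 2.42, 2.67 and 1.27, and Dpt 1.52 (0.805 to 3.05). Pi16 had a ratio of 0.721 (0.407 to 1.29) and Fap 0.432 (0.161 to 1.12), at 30 against 24 and 9 against 12 counts. The 8 markers of pericytes and smooth muscle summed to 145 and 324 CPM, a ratio of 0.447 (0.400 to 0.5003). Without Tagln, at 47.6 against 195.6 CPM, the other 7 summed to 97.5 and 129 CPM, a ratio of 0.757 (0.648 to 0.886). Among them, Cspg4 and Acta2 had ratios of 0.173 (0.0568 to 0.447) and 0.523 (0.404 to 0.677). Rgs5, Myh11 and Pdgfrb had ratios of 0.700, 0.577 and 0.929, and the intervals of Myh11 and Pdgfrb included 1. Notch3 and Des went the other way, at 5.19 (2.24 to 14.8) and 1.73 (0.946 to 3.34). The 8 endothelial markers summed to 165 and 332 CPM, a ratio of 0.496 (0.445 to 0.552), although Vwf had 18 against 3 counts.

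The adipocyte and keratinocyte lists had the widest differences. The 7 adipocyte markers summed to 97.5 CPM treated and 593 CPM control, a ratio of 0.164 (0.146 to 0.185), and both markers that reached the minimum, Fabp4 and Cfd, were lower. The 8 keratinocyte markers summed to 2128 CPM treated and 154 CPM control, a ratio of 13.8 (12.4 to 15.4). The 7 epithelial markers of 4T1 cells summed to 5223 and 4692 CPM, a ratio of 1.11 (1.09 to 1.14). Most of this sum comes from Krt8 and Krt18, with ratios of 1.08 and 1.13. The other epithelial markers went both ways: Krt19, Epcam and Cldn4 had ratios of 1.58, 1.54 and 1.24. Krt7 had a ratio of 0.741 (0.686 to 0.800) and Cdh1 0.979 (0.870 to 1.10). The part of these cell types in the values of Ibsp, Ptn, Mgp and Spp1 was not tested.

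**Figure D5:**
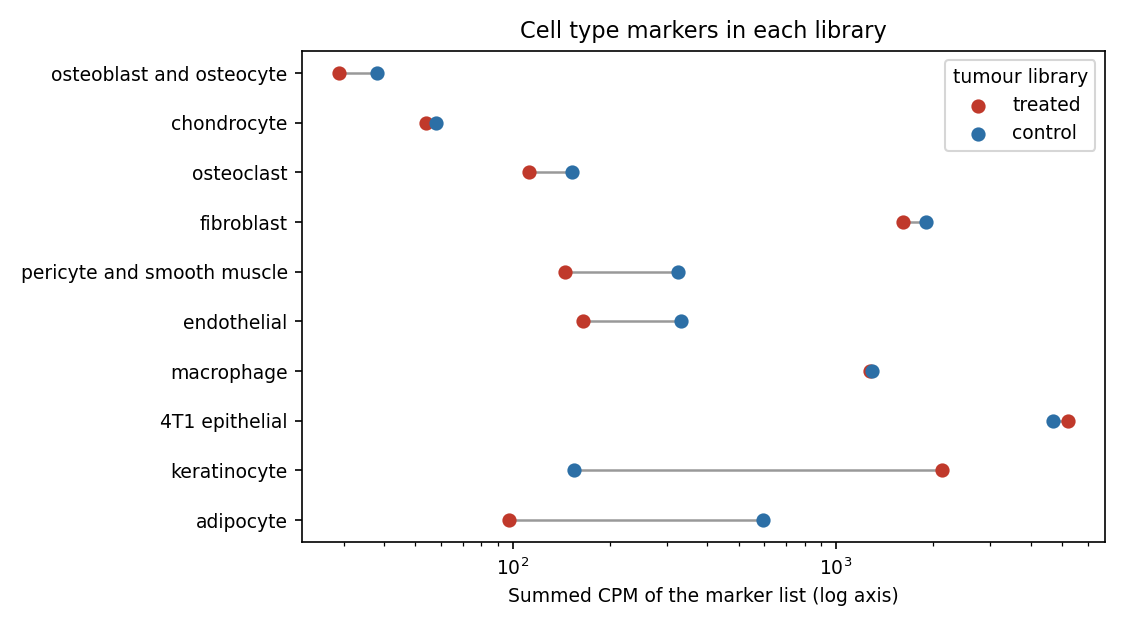
Summed CPM of each cell type marker list on a log axis in the treated (red) and control (blue) tumour library, joined by a grey line. The keratinocyte list is higher in the treated library at 2128 against 154 CPM, the adipocyte, endothelial and pericyte lists are lower, and the macrophage list lies at 1276 and 1295 CPM.

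The genes nearest to each member in the plane of its 2 log2 levels show how common such a pair of values was. Predicted genes, clones and antigen receptor segments were left out of this search, which leaves 8660 named genes. Distances are in log2 units over only 2 libraries, so they describe a likeness of 2 values and nothing more. None of the genes searched lay near Ibsp. The closest were Car3, a carbonic anhydrase of fat and muscle with 44 against 139 counts, at a distance of 1.31, and Bhlhe41, a transcription repressor of the circadian clock with 69 against 186 counts, at 1.63. Ptn lay 0.173 from Adamdec1, a secreted metalloprotease with 15 against 69 counts, and 0.386 from Airn, a noncoding RNA with 16 against 53 counts. Mgp lay 0.0992 from Tnfaip3, an inhibitor of NF-kB signalling with 190 against 268 counts, and 0.140 from Prss23, a serine protease gene. The nearest genes of Runx2 (Tmtc4 and Map3k14), Postn (Gng5 and Sumo2) and Sparc (Hnrnpa1 and Zfp862-ps) lay within 0.0685, and those of Spp1, the ribosomal protein genes Rps7 and Rpl17, at 0.205 and 0.289.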

How the data were processed

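Bulk RNA of 1 treated and 1 control 4T1 tumour was sequenced, from 1.5 µg of RNA per library per the labels. The authors deposited counts per gene in 34290 rows. Reads were aligned to mm10, per the submitters' processing notes; the aligner, counting tool, strand handling and use of molecular identifiers are not stated there. Of these rows, 31 at the top of the table hold autophagy genes on another scale, 30 of them with values that are not whole, and were left out, which leaves 34259. A further 7 columns are tied to no sample and were not used. The columns were matched to samples through the single-column sheet of each sample. That second sheet has 34250 rows and differs from the full table in 3 control values, none of a bone matrix gene.

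The libraries held 3824323 treated and 2252214 control counts in 17987 and 16634 detected genes, so 1 count is 0.259 and 0.449 CPM. TMM was written out from its formula (trimming 30% of ratios and 5% of abundances), with factors of 1.01 and 0.989, and was checked on simulated counts. Folds of single genes are ratios of CPM without a pseudocount; log2 ratios have 1 CPM added, which understates differences of low genes. With 1 library per group the conditions could not be tested, and p-values are not reported. Intervals are exact 95% intervals (Poisson for levels, conditional binomial for ratios, conditional odds ratio for counts per 100 counts of another gene) and cover counting error only.

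The bone matrix genes and all lists were chosen with earlier results of these data known. The text names each bone matrix gene, the list genes past 2-fold, the 2 most abundant genes of each list, and the 2 nearest genes of each member. Dmp1, Dspp, Mepe, Bglap, Bglap2, Sp7, Dlx5, Msx2, Runx3, Smoc2, Smpd3, Mdk, Ptprz1, Alk, Tgfbi, Col1a1, Itgb3, Id1, Bmp2, Bmp7, Bmpr1b, Ctsk, Ocstamp, Dcstamp, Atp6v0d2, Calcr, Oscar, Supt3 and the neighbours of Ibsp were named after their values were seen, as were the gene pairs. Coordinates are from GENCODE M21 on mm10. Python 3.11.15, numpy 2.4.6, pandas 2.3.3, scipy 1.17.1 and matplotlib 3.10.9 were used.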

Additional observations from a re-analysis of the deposited data

How the results depend on the processing

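Alternatives were 3 other scalings, pseudocounts of 0.5 and 5, a minimum mean of 1 CPM, 50 CPM or none, a 1.5-fold threshold, the second sheet and, added after the data were seen, keeping the 31 rows on another scale. The number of lower bone matrix genes was 3 under all of these except the minimum of 50 CPM, where it was 2 because Ptn has a mean of 16.5 CPM, and the 1.5-fold threshold, where it was 5. The number of higher ones was 0 throughout. Over all genes, those lower and higher numbered 674 and 1061 of 13860 tested with a minimum of 1 CPM, and 77 and 81 of 3342 with 50 CPM. They numbered 774 and 1356 of 34259 with no minimum, and 800 and 1138 of 8865 at 1.5-fold. The number tested thus changed with the minimum, and the counts are to be read beside it. The pseudocount of 5 left 144 of 8865 lower. With a pseudocount of 5, which moves low genes toward 0, the log2 ratios of Ibsp and Ptn were -3.56 and -2.05, from -4.21 and -2.81. Those of the other 5 genes moved by less than their counting error under the alternatives run, and all 7 stayed below 0. Of 88 recomputed list medians, 10 moved by 0.1 or more; with a minimum of 50 CPM, the Gla protein list rested on Mgp alone at -1.41. No scaling shifted the median of all genes by more than 0.0304. No paired analysis was possible because there is 1 library per group, so no library could be left out either. At this depth Alpl was not detected in the treated library, and Ptn and Mdk rest on 13 and 12 treated counts.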
